A study of Mus musculus with 6 samples.

Results

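The immunoglobulin probe sets were the 52 of 45101 probe sets on a mouse expression array whose annotation named a heavy, kappa or lambda chain gene segment or Jchain. They were chosen by gene symbol, by a rule that uses no measured value, although it was written with earlier results of these data known. Heavy chain symbols marked 23 of them, kappa symbols 24, lambda symbols 4 and Jchain 1. Each was kept as a separate measurement. A single symbol was given for 39 of them and several symbols for 13, and together they carried 27 of the 19324 symbols on the array, of which all 27 were matched to RefSeq through their Entrez identifiers. Among constant region genes, only Ighm, Ighg3, Igha, Igkc and Iglc1 appeared among these symbols. Other isotypes were not analysed here as genes of their own.

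Cells of C57BL/6 mice were compared in a plasma cell and a B cell group, with 3 Affymetrix arrays each. The plasma cells came from bone marrow 7 days after a boost with the protein antigen KLH (keyhole limpet hemocyanin). They were enriched with magnetic beads through CD138 and sorted as B220- CD138+, and 50000 to 70000 cells went into an array. The B cells were naive B220+ CD23+ cells of the spleen, which the submitters call mature follicular cells, with 2000000 to 3000000 cells for an array. Tissue, boost, bead enrichment and cell number differed together with the cell type and cannot be told apart from it. The age and number of the mice were not given in the sources used here, and no label tied a replicate to an animal of its own. The p-values therefore rest on how far these samples differ, a spread that could be technical.

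An antibody consists of heavy and light chains, each made of a variable region that binds antigen and a constant region. The variable region is assembled from V, J and, in heavy chains, D segments, and the heavy chain constant region sets the isotype, such as IgM from Ighm, IgG3 from Ighg3 or IgA from Igha. Naive B cells carry IgM and IgD on the membrane as the antigen receptor, while plasma cells use another end of the heavy chain transcript and secrete the protein. J chain links IgM pentamers and IgA dimers. Because V segments of a family, and constant regions of related isotypes, resemble each other in sequence, a probe set named for a segment can also bind transcripts of its relatives.

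Markers of both gates and of other cells were measured. Of 6 plasma cell markers 6 were higher in plasma cells, and of 7 measured follicular B cell markers 7 were lower. Over all probe sets, 13.4% were called higher and 12.8% lower. Sdc1, Fcer2a and Ptprc of these lists encode the sorted proteins CD138, CD23 and B220, so their calls are not independent of the sort. Of 6 measured pro-B and pre-B cell markers, 5 were called higher in the plasma cell group and 0 lower. The summed intensity of 9 measured granulocyte markers was 8747, 20981 and 15148 on plasma cell arrays 1, 2 and 3, against 13076, 2951 and 1935 on B cell arrays 1, 2 and 3, and 1 of the 9 was called higher and 1 lower. B cell array 1 stood apart, with Pearson correlations of 0.933 and 0.926 across probe sets with B cell arrays 2 and 3, where arrays 2 and 3 correlated at 0.992 with each other. The 95th percentile of 27 bacterial control probe sets, used as the background level, was between 23.0 and 41.8 on the 6 arrays, and the highest value of an array was between 25764 and 26749. A total of 24 immunoglobulin probe sets lay within 2-fold of that highest value on all 3 plasma cell arrays, against 0.393% of all probe sets, and 5 did so on all 3 B cell arrays. Fold changes of such probe sets can understate a difference.

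Nearly all immunoglobulin probe sets were higher in plasma cells. Of 52, 46 were called higher (limma, adjusted p under 0.05 over 45037 probe sets) and 1 was called lower, where 13.4% of all probe sets were called higher and 12.8% lower. Every plasma cell array lay above every B cell array in 48 of the 52, against 20.8% of all probe sets, and below in 1, against 24.6%. The median log2 fold change, taken on log2(intensity + 16) as plasma cells minus B cells, was 2.26 for the 52 and −0.13 for all probe sets tested. It was 4.01 for heavy chain, 1.71 for kappa and 1.39 for lambda probe sets, and the differences between these medians were not tested. Without B cell array 1 the counts were again 46 and 1, with 18.1% of all probe sets called higher and 20.7% lower. In bulk samples, fewer cells of a type and less RNA per cell cannot be told apart.

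**Figure D1:**
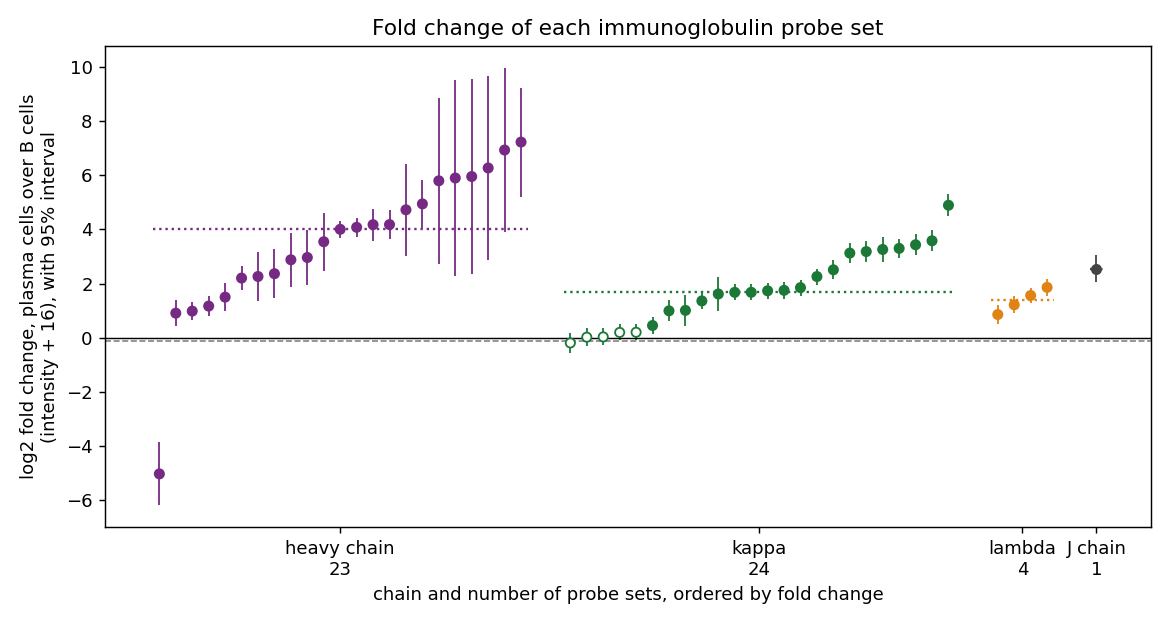
Log2 fold change of each of the 52 immunoglobulin probe sets (y axis, plasma cells over B cells on intensity + 16), grouped by chain and ordered by size along the x axis, with 95% intervals from limma. Filled points were called, open points were not, dotted lines mark the chain medians (4.01 for heavy chain, 1.71 for kappa) and the dashed line the median of all probe sets, −0.13. A single heavy chain probe set lies below 0, and the 5 open points are all kappa.

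Ighm, the constant region of IgM, was the only symbol of 11 probe sets. All 11 were called higher in plasma cells, with log2 fold changes from 0.91 to 6.94. The 11 followed different patterns on the B cell arrays. On B cell array 2, 1427329_a_at had 10639, while 1427870_x_at had 10.9, within background. Since naive B cells carry IgM, the 11 cannot all be read as the level of IgM mRNA. Which transcripts each of them binds could not be checked. Of the 8 that lay near the top of the scale in plasma cells, 1427329_a_at and 1427351_s_at had the smallest changes. Probe set 1427329_a_at had intensities of 20455, 19934 and 19781 in plasma cells, against 9112, 10639 and 10778 in B cells. Its log2 fold change was 0.98 with a standard error of 0.13 (adjusted p = 0.00338), and errors after ± below are standard errors of log2 fold changes. Probe set 1427351_s_at had 18717, 18656 and 18827 in plasma cells, against 7108, 8788 and 9264 in B cells (1.17 ± 0.15, adjusted p = 0.00276). In both, the plasma cell values were tightly packed near the top of the scale and the groups did not overlap.

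In 5 other Ighm probe sets the B cell arrays lay more than 10-fold apart while the plasma cell arrays were even. The one with the highest fold change, 1427870_x_at, had 20677, 20232 and 20386 in plasma cells, against 1051, 10.9 and 145 in B cells (6.94 ± 1.25, adjusted p = 0.00951). B cell array 1 was high, array 3 intermediate and array 2 within background. The same order held for 1425247_a_at, named here after its values were seen, with 21191, 21358 and 21527 in plasma cells, against 3074, 21.6 and 375 in B cells. Its log2 fold change was 5.90 ± 1.49, and 7.46 without B cell array 1. Without B cell array 1 the log2 fold change of 1427870_x_at was 8.28, and without B cell array 2 it was 5.62. Of the 5, only 1427870_x_at was called under all 15 settings, while 1425247_a_at, 1425324_x_at, 1427756_x_at and 1427869_at lost the call without any 1 of the 3 plasma cell arrays or without B cell array 3, with adjusted p up to 0.0996. With a pseudocount of 1 in place of 16, 1425247_a_at and 1427869_at lost it as well. A related pattern was seen in 1425385_a_at, with 21324, 21621 and 21499 in plasma cells, against 1706, 237 and 1209 in B cells. Its log2 fold change of 4.73 ± 0.70 was called under all 15 settings, which ranged from 3.89, without B cell array 2, to 5.81, with array weights.

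The remaining Ighm probe sets were lower in signal. Probe set 1452535_at, also named after its values were seen, was even in both groups, at 9120, 8288 and 9155 in plasma cells, against 519, 558 and 530 in B cells (4.01 ± 0.13, adjusted p = 4.52e-05). Probe set 1451949_at did not exceed background on any B cell array and was at least 5.59-fold higher in plasma cells (adjusted p = 0.00662). Such bounds set the mean log2 intensity of the bright group against the background level of the dim group's arrays, without the pseudocount. The least changed, 1426196_at, had 44.8, 72.9 and 59.6 in plasma cells, against 17.5, 28.5 and 25.7 in B cells (0.91 ± 0.20, adjusted p = 0.0206), and this call was lost on leaving out plasma cell array 2 (adjusted p = 0.0754), plasma cell array 3 (0.0715) or B cell array 3 (0.0571).

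**Figure D2:**
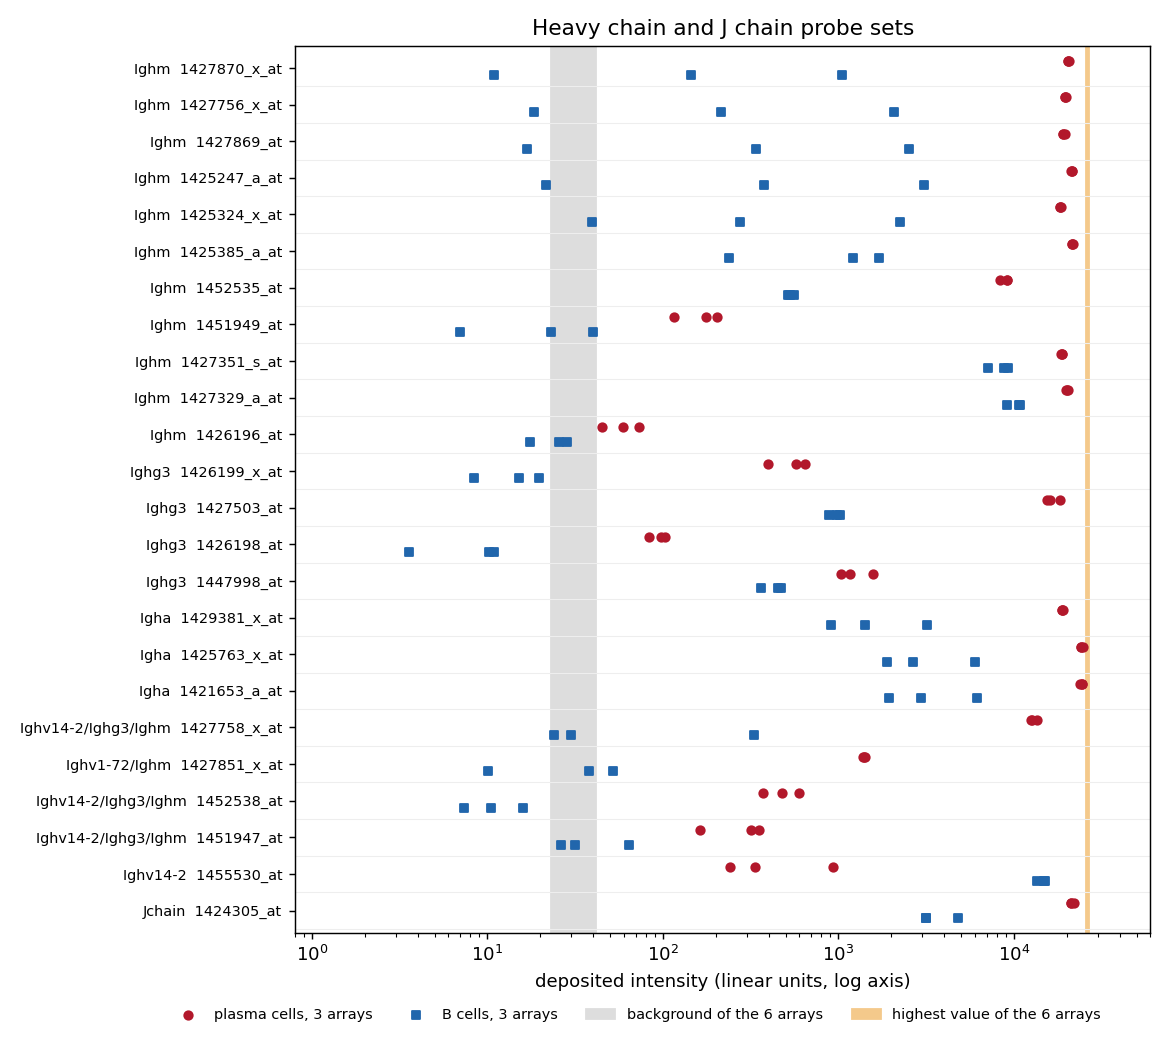
Deposited intensity (x axis, log scale) of the 23 heavy chain probe sets and Jchain on each array, with plasma cells as circles above B cells as squares in every row. The grey band is the background level of the 6 arrays, 23.0 to 41.8, and the orange band their highest values. Circles sit close together near the orange band in many rows, while the squares of several Ighm rows spread over a wide range.

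Ighg3, the constant region of IgG3, had 4 probe sets, and all 4 were called higher. Probe set 1427503_at had 18298, 16082 and 15383 in plasma cells, against 979, 1025 and 888 in B cells (4.08 ± 0.14, adjusted p = 5.51e-05). Probe set 1447998_at had 1576, 1030 and 1165 in plasma cells, against 363, 454 and 473 in B cells (1.50 ± 0.21, adjusted p = 0.00367). Both were over background on every array with no overlap between groups. The other two did not exceed background in B cells. Probe set 1426199_x_at had 395, 648 and 575 in plasma cells and was at least 18.4-fold higher there (adjusted p = 0.00018). Probe set 1426198_at had 97.1, 103 and 83.7 in plasma cells and was at least 3.29-fold higher (adjusted p = 0.000506).

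Another 4 heavy chain probe sets carried a V segment symbol together with Ighm or Ighg3, so the annotation does not tie them to a single segment or isotype, and all 4 were called higher. Probe set 1427758_x_at, annotated Ighv14-2, Ighg3 and Ighm, had 12741, 13515 and 12524 in plasma cells, against 331, 23.8 and 29.9 in B cells. Its log2 fold change of 7.23 ± 0.83 (adjusted p = 0.00175) ranked 2 among the 45037 probe sets tested, and it was 8.24 without B cell array 1, the array on which it was brightest among the B cells. On B cell arrays 2 and 3 it lay just over the background levels of 22.99 and 25.25, so background limits the size and rank of this change. The size moved with the pseudocount, to 7.67 with a pseudocount of 1 and 6.45 with 64. The other three ranged in log2 fold change from 2.37 to 4.95. They include 1452538_at, named after its values were seen, which did not exceed background on any B cell array and was at least 16.5-fold higher in plasma cells (adjusted p = 0.000142).

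The heavy chain probe set annotated with Ighv14-2 alone, 1455530_at, was the only one of the 52 that was called lower. It had 241, 334 and 933 in plasma cells, against 13610, 14852 and 14960 in B cells (−5.04 ± 0.48, adjusted p = 0.000889), so the groups were far apart and the plasma cell arrays were uneven. Ranked from the lowest fold change, it stood at 36 of 45037 probe sets. The call held under all 15 settings, with log2 fold changes from −5.59 to −4.65. The 3 other probe sets that carry the symbol Ighv14-2, each together with Ighg3 and Ighm, were all called higher, so probe sets that share this symbol moved in opposite directions. Beside it, the summed intensity of 6 measured pro-B and pre-B cell markers was 15583, 12081 and 21796 on plasma cell arrays 1, 2 and 3. On B cell arrays 1, 2 and 3 it was 5695, 4539 and 4144. Among plasma cells, the sum and 1455530_at were both highest on array 3. The sum was lowest on array 2 and 1455530_at on array 1. Of the 6 markers, Rag1 (815, 1075 and 2250) and Vpreb3 (1493, 1869 and 2710) had the array order of 1455530_at. Vpreb1, Rag2 and Dntt were highest on array 3 and lowest on array 2. Much of the sum came from Igll1, with 8737, 8358 and 8367 in plasma cells, highest on array 1. The summed intensity of 7 follicular B cell markers was 7713, 7719 and 7017 in plasma cells, against 46702, 52679 and 52294 in B cells. The part of either marker list in the value of 1455530_at was not tested.

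Igha, the constant region of IgA, had 3 probe sets, and all 3 were called higher. Probe set 1421653_a_at had 24497, 24378 and 23934 in plasma cells, against 1940, 2967 and 6136 in B cells (2.88 ± 0.41, adjusted p = 0.00392). Probe set 1425763_x_at had 24079, 24622 and 24245 in plasma cells, against 1886, 2648 and 5961 in B cells (2.96 ± 0.41, adjusted p = 0.00371). These plasma cell values came within a small margin of the highest value of their arrays. Probe set 1429381_x_at had 18865, 19039 and 18903 in plasma cells, against 912, 1410 and 3209 in B cells (3.55 ± 0.44, adjusted p = 0.00245). In all 3 the B cell arrays kept the same order, with array 3 highest and array 1 lowest. This was not the order of the uneven Ighm probe sets, in which array 1 was highest.

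**Figure D3:**
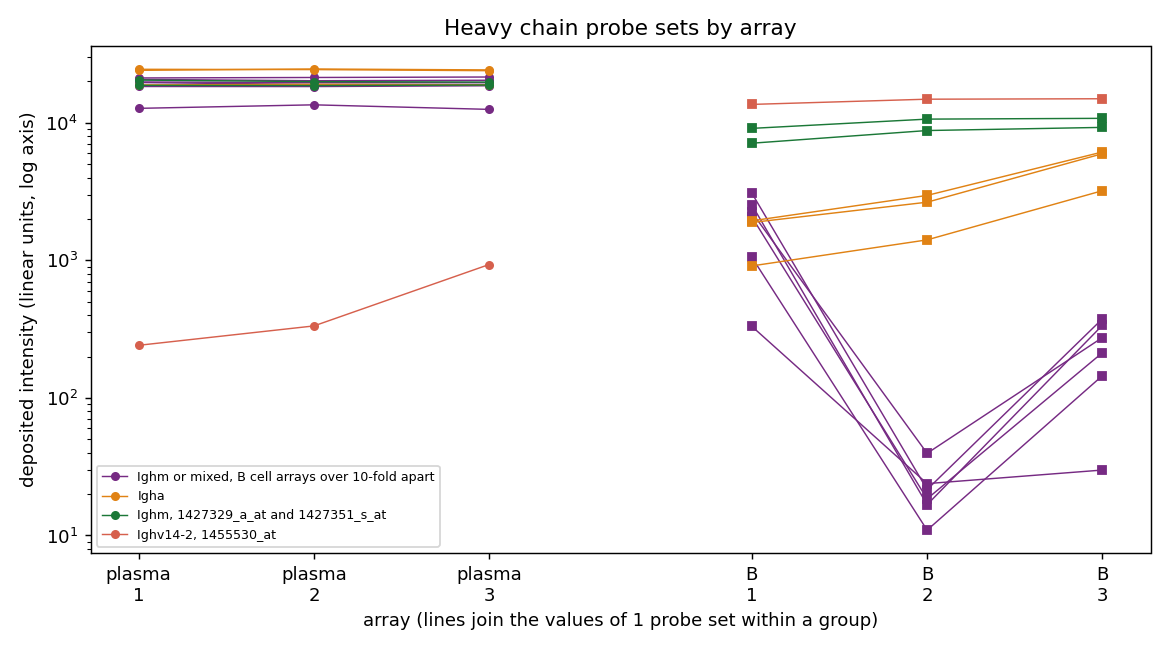
Deposited intensity (y axis, log scale) by array for 6 heavy chain probe sets whose B cell arrays lay more than 10-fold apart (purple), the 3 Igha probe sets (orange), the evenly bright Ighm pair (green) and the Ighv14-2 probe set 1455530_at (red), plasma cells on the left and B cells on the right. Lines join values of 1 probe set, and arrays of a group have no order. The purple probe sets are highest on B cell array 1 and lowest on array 2, Igha is highest on B cell array 3, and only the red line is higher in B cells.

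The uneven B cell values were set beside the marker lists. Over all chains, 7 of the 52 probe sets had B cell arrays more than 10-fold apart, against 6.85% of all probe sets, and for plasma cell arrays the count was 0, against 2.53%. Of these 7, 6 were heavy chain probe sets with B cell array 1 highest and array 2 lowest, and the other was a kappa probe set that did not exceed background in B cells. The summed intensity of 8 measured T and NK cell markers was 6498, 471 and 530 on B cell arrays 1, 2 and 3, and the granulocyte sums given above had the same highest array. The summed intensity of 5 erythroid markers was 1412, 82.1 and 107, that of 6 monocyte and macrophage markers 5547, 3845 and 4215, and that of 6 markers of basophils, mast cells and eosinophils 489, 219 and 284. The sums of these lists were all highest on array 1, as were the 6 heavy chain probe sets. Every measured T and NK cell marker was highest there. Mpo of the granulocyte list, Hba-a1 of the erythroid list and Cd68, Cd14 and Ms4a7 of the monocyte and macrophage list were not. Nor were Epx and Prg2 of the basophil, mast cell and eosinophil list. Among the B cell arrays, the median of all probe sets was also highest on array 1. The 6 plasma cell markers did not share an order on the B cell arrays. Their summed intensity was 9347, 10475 and 10780 on B cell arrays 1, 2 and 3, most of it from Irf4, with 5865, 6493 and 6721, and Xbp1, with 1715, 2190 and 2217. Tnfrsf17, the receptor BCMA, had 38.7, within background, 33.2 and 28.3, and Slamf7, a surface receptor, had 670, 610 and 535, both highest on array 1. Prdm1, which encodes the plasma cell regulator Blimp-1, had 89.3, 83.9 and 96.3, and Sdc1, which encodes CD138, had 969, 1065 and 1183. The erythroid markers Klf1 and Epor, and Fcer1a of the basophil, mast cell and eosinophil list, did not exceed background on any B cell array. The part of any of these lists, the plasma cell markers included, in the uneven values was not tested.

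Jchain, the gene of the joining chain of polymeric antibody, was measured by 1424305_at. It had 22030, 21179 and 21062 in plasma cells, against 4825, 3149 and 3171 in B cells (2.55 ± 0.20, adjusted p = 0.000476). The groups did not overlap, and B cell array 1 was the highest B cell array. Without it the log2 fold change was 2.76. As background, Jchain is expressed in antibody-secreting cells, and the B lineage factor Pax5 represses it in B cells. Pax5 had 26.7, 31.8 and 29.4 in plasma cells, against 565, 628 and 928 in B cells (−3.97 ± 0.21, adjusted p = 0.000142). It was over background on 1 of the 3 plasma cell arrays, so the size of this change is limited by background. The RefSeq promoter table (build GRCm38.p6) matched 1 of the 27 symbols, Jchain. The 250 bases before its start, at chr5:88527898-88528147 on the minus strand, are shown because this is the member outside the antibody loci, transcribed without rearrangement, whose own promoter can be read. Capitals mark the E-box motif CANNTG, the site class of E proteins.
Jchain: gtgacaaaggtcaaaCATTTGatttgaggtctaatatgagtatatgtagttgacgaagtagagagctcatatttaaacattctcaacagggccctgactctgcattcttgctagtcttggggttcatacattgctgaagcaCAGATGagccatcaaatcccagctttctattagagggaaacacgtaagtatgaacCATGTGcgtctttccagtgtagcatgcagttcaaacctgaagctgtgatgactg
The E-box occurred at 3 places in this window on either strand, none overlapping another. Among 32851 promoter windows of the same length, 66.2% held at least 1 and 12.2% at least 3. The octamer ATGCAAAT, the element of immunoglobulin V segment promoters that Oct-1 and Oct-2 bind, occurred 0 times in this window on either strand and was present in 1.60% of the windows.

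Kappa is the main light chain of mouse antibodies. Of 21 probe sets annotated with kappa V segments, 19 were called higher and 0 lower, with a median log2 fold change of 1.75. The highest belonged to 1452536_s_at of Igkv9-120, which had 10049, 8996 and 9357 in plasma cells, against 272, 368 and 275 in B cells (4.90 ± 0.17, adjusted p = 5.51e-05). The called probe set with the smallest change, and another near the top of the scale in plasma cells, are given next. Probe set 1452463_x_at of Igkv8-30 had 19150, 18835 and 18838 in plasma cells, against 13105, 14162 and 14375 in B cells (0.45 ± 0.12, adjusted p = 0.0414). Igkv8-30 was also within 2-fold of the highest value on every B cell array, and the call was lost in 9 of 14 other settings, with adjusted p up to 0.166. Probe set 1427855_at of Igkv19-93 had 19518, 19470 and 18873 in plasma cells, against 5866, 5978 and 5541 in B cells (1.73 ± 0.12, adjusted p = 0.000311).

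Probe sets named for the same kappa V segment gave different fold changes. Igkv9-120 had 3, with 4.90 for 1452536_s_at and 1.68 for 1460423_x_at. The other, 1427750_at, was called higher but did not exceed background on any B cell array or on plasma cell array 1 (22.2). Its bound of 1.17-fold includes that plasma cell value, so it is not a firm minimum. The call of 1427750_at was lost on leaving out plasma cell array 2 or either of B cell arrays 2 and 3 (highest adjusted p 0.0762). Igkv19-93 had 2, with 3.30 for 1427856_a_at and 1.73 for 1427855_at. The 3 probe sets annotated Igkv6-14, Igkv6-23 and Igkv8-19 together gave 3.26, 1.75 and 0.99. Among segments with a single probe set of their own, those called higher included Igkv15-103 (3.18 ± 0.16), Igkv5-39 (2.51 ± 0.14), Igkv14-111 (2.26 ± 0.12) and Igkv6-15 (1.36 ± 0.12). These were chosen after their values were seen.

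The 2 kappa V probe sets that were not called lay within background on all 6 arrays. Probe set 1427753_at of Igkv1-135 had 6.2, 5.0 and 4.8 in plasma cells, against 3.3, 6.1 and 5.6 in B cells. Probe set 1427748_at of Igkv1-117 had 1.0, 1.0 and 1.1 in plasma cells, against 6.6, 1.0 and 3.4 in B cells. The groups overlapped in both, and neither showed a measurable level.

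**Figure D4:**
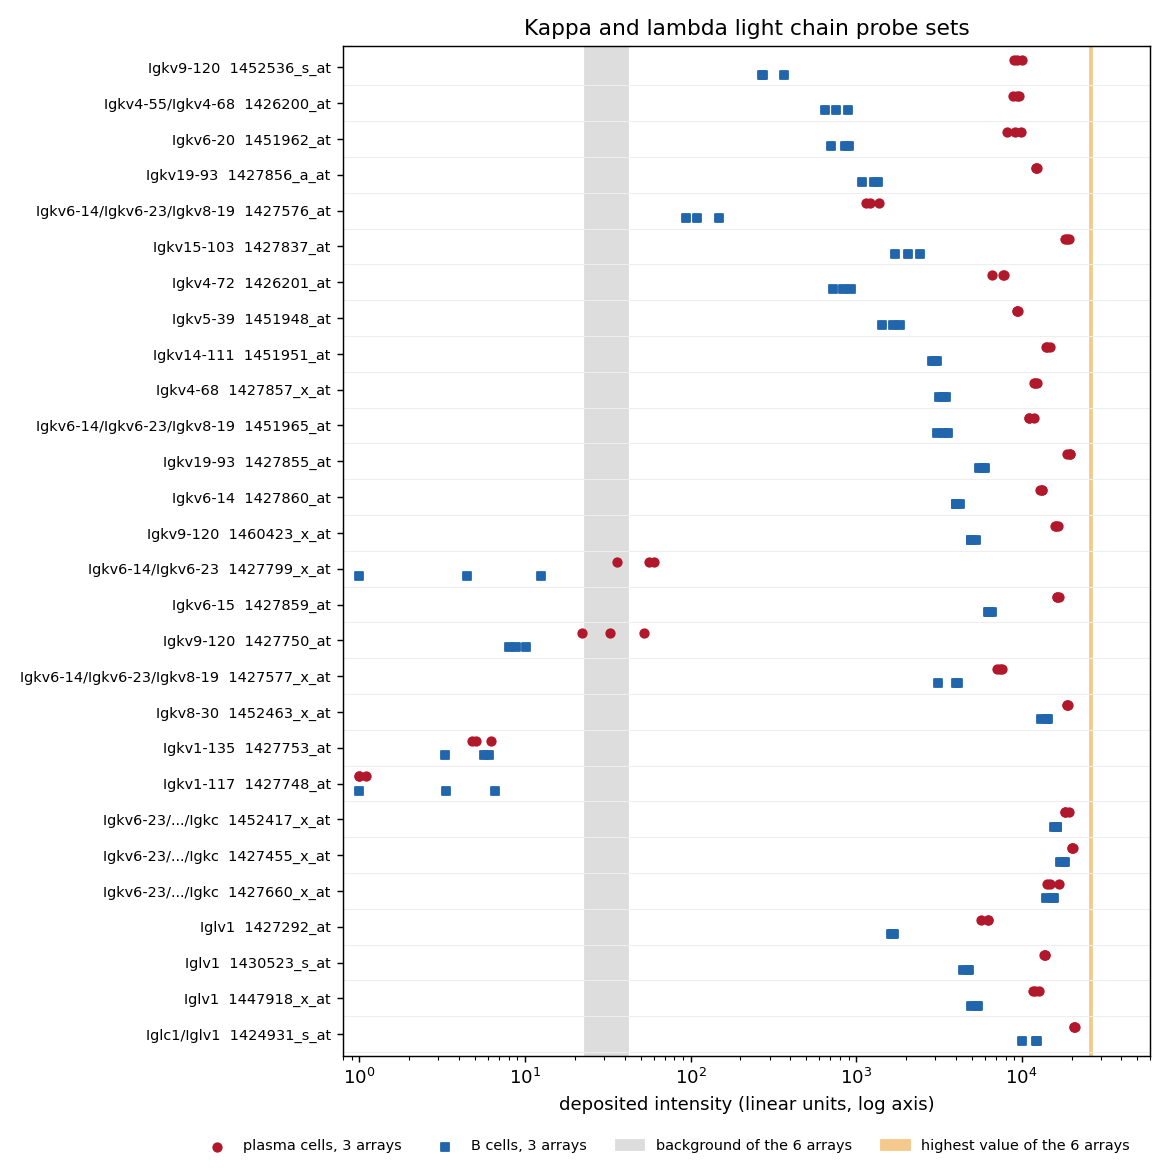
Deposited intensity (x axis, log scale) of the 24 kappa and 4 lambda probe sets on each array, with plasma cells as circles above B cells as squares in every row. The grey band is the background level, 23.0 to 41.8, and the orange band the highest values of the 6 arrays. In most rows the circles lie to the right of the squares, and in the 3 rows that include Igkc both lie close to the orange band.

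The kappa constant region was read by 3 probe sets, each annotated with Igkc together with Igkj1 and 3 V segments, and 0 of the 3 were called. Probe set 1427455_x_at had 20255, 20079 and 20450 in plasma cells, against 16935, 17969 and 18279 in B cells (0.19, 95% interval −0.10 to 0.49, adjusted p = 0.297). Probe set 1452417_x_at had 18194, 18327 and 19295 in plasma cells, against 15699, 16451 and 16447 in B cells (0.20, −0.10 to 0.49, adjusted p = 0.284). In these 2 every plasma cell array lay above every B cell array, and both were called higher when limma's prior variance followed the mean level (adjusted p = 0.0437 and 0.0408). Probe set 1427660_x_at had 14729, 14290 and 16845 in plasma cells, against 14112, 15439 and 15691 in B cells (0.02, −0.32 to 0.35, adjusted p = 0.939), with overlapping groups. All 3 lay within 2-fold of the highest value on all 6 arrays, where the scale limits what can be read, and missing the threshold does not show that the groups had equal levels.

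Lambda chains, the minor light chain type in mice, were read by 4 probe sets, and all 4 were called higher. Probe set 1427292_at of Iglv1 had 6257, 6275 and 5691 in plasma cells, against 1664, 1699 and 1621 in B cells (1.86 ± 0.12, adjusted p = 0.000266). Probe set 1430523_s_at of Iglv1 had 13633, 13882 and 13755 in plasma cells, against 4433, 4795 and 4758 in B cells (1.56 ± 0.12, adjusted p = 0.000442). Probe set 1447918_x_at of Iglv1 had 11721, 12791 and 12012 in plasma cells, against 4911, 5414 and 5396 in B cells (1.21 ± 0.13, adjusted p = 0.00126). The 3 Iglv1 probe sets separated the groups without overlap. Probe set 1424931_s_at, annotated Iglc1 and Iglv1, had 20611, 21013 and 20691 in plasma cells, against 10058, 12148 and 12372 in B cells (0.86 ± 0.14, adjusted p = 0.00683).

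**Figure D5:**
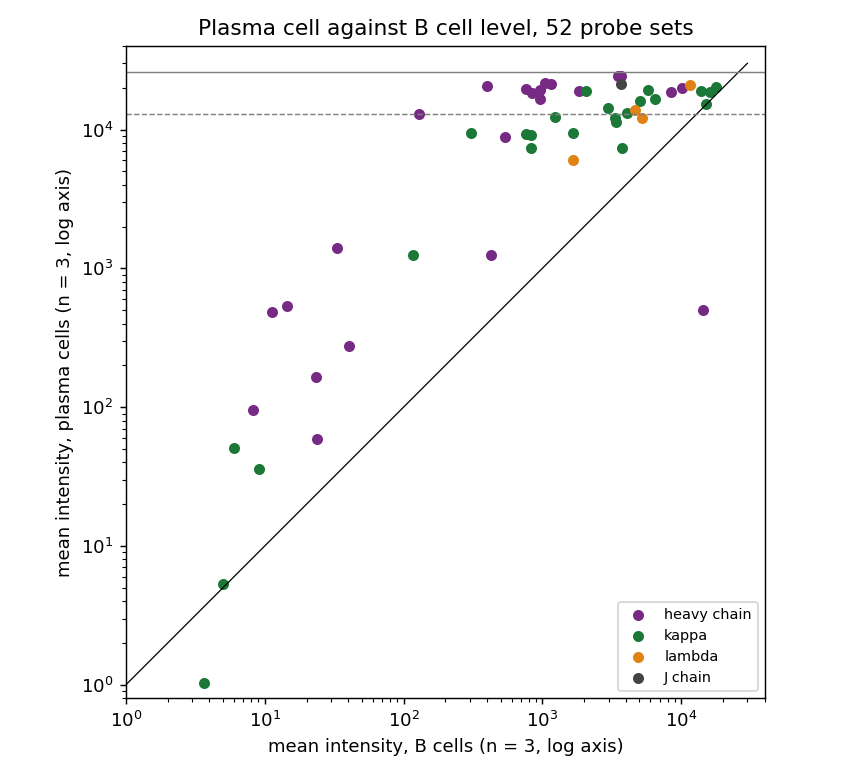
Mean intensity in plasma cells (y axis) against mean intensity in B cells (x axis), both on log scales, for the 52 immunoglobulin probe sets coloured by chain, with the line of equal levels. The solid grey line marks the lowest of the 6 arrays' highest values, 25764, and the dashed line the level 2-fold below it. Points spread widely along the B cell axis but gather under the solid line on the plasma cell axis, and the single heavy chain point far below the diagonal is 1455530_at.

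The spread between arrays was described within each group, where the top of the scale limits it. The 3 plasma cell arrays lay within 2-fold of each other in 49 of 52 probe sets (94.2%), against 71.6% of all probe sets, and the 3 B cell arrays in 34 of 52 (65.4%), against 56.4%. The median SD over arrays on the log2 scale was 0.043 in plasma cells and 0.199 in B cells, where all probe sets had 0.180 and 0.309. Since 24 of the 52 lay near the top of the scale on all plasma cell arrays and 5 on all B cell arrays, these spreads do not compare the groups. Over all probe sets, B cell arrays 2 and 3 correlated at 0.992, above every pair of plasma cell arrays (0.985 to 0.989), and B cell array 1 stood apart. The 3 probe sets that were more than 2-fold apart among plasma cells were 1455530_at, 1451947_at and 1427750_at, none of them near the top of the scale.

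Genes that act on immunoglobulin chains were read from lists, each gene by its brightest probe set. Of 20 genes for assembly and folding in the endoplasmic reticulum, 19 were called higher and 0 lower, with a median log2 fold change of 1.80. The largest changes were those of the chaperone partner Sdf2l1 (3.77 ± 0.14), the peroxiredoxin Prdx4 (3.58 ± 0.12) and the BiP cofactor Dnajc3 (3.23 ± 0.14). Hspa5, which encodes BiP, the chaperone that holds unassembled heavy chains, had 13412, 13627 and 13140 in plasma cells, against 4731, 8008 and 7731 in B cells (1.01 ± 0.23). It was named after its values were seen, like Ero1b, an oxidase of disulfide bond formation, which was the list's member not called (0.29 ± 0.12, adjusted p = 0.132).

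Of 8 genes for 3′ end choice and splicing of immunoglobulin transcripts, 2 were called higher and 1 lower, with a median of −0.13. Ell2, the elongation factor that favours the secretory end of heavy chain transcripts, had 9445, 9490 and 9070 in plasma cells, against 1792, 1645 and 1662 in B cells (2.45 ± 0.12, adjusted p = 0.000119). Hnrnpll, a splicing regulator of plasma cells, had 839, 849 and 619 in plasma cells, against 46.2, 27.3 and 17.0 in B cells (4.12 ± 0.27, adjusted p = 0.000256). Cpsf3, the nuclease that cuts the transcript at its 3′ end, was lower (−0.80 ± 0.20, adjusted p = 0.0297). The polyadenylation subunit Cstf2 was not called (−0.26 ± 0.15) and was named after its values were seen.

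Of 14 measured transcription factors that act at the antibody loci, 4 were called higher and 5 lower, with a median of −0.02. Prdm1 (5.67 ± 0.13), the secretory regulator Xbp1 (2.85 ± 0.15) and the cell cycle factor E2f1 (1.48 ± 0.21) were higher. Pax5, Spib (−2.81 ± 0.61) and Ebf1 (−1.56 ± 0.30), which act in B cells, were lower. Pou2af1, the coactivator of the octamer factors, was bright in both groups and not called, at 11258, 11343 and 10477 in plasma cells, against 9245, 8439 and 7849 in B cells (0.38 ± 0.13, adjusted p = 0.0915). It was named after its values were seen.

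Of the 2 signalling partners of the B cell receptor, 1 was called lower. Cd79a had 7058, 7532 and 7741 in plasma cells, against 9359, 11701 and 12347 in B cells (−0.57 ± 0.16, adjusted p = 0.0426), and Cd79b was not called (−0.45 ± 0.13, adjusted p = 0.0541). Of 4 measured antibody receptors and transporters 3 were called lower and 0 higher, with a median of −1.81. These were the neonatal Fc receptor gene Fcgrt (−3.41 ± 0.15), the IgM receptor gene Fcmr (−2.92 ± 0.18) and Fcgr2b, the inhibitory IgG receptor gene (−0.70 ± 0.16).

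Genes of the surrogate light chain and of recombination and diversification were counted in the same way. Of 3 measured surrogate light chain genes, 2 were called higher, Igll1 (1.46 ± 0.21, adjusted p = 0.00427) and Vpreb1 (2.77 ± 0.73, adjusted p = 0.0373), with a list median of 1.46. Of 11 measured genes for recombination and diversification, 6 were called higher and 0 lower, with a median of 1.14. Besides Rag1, Dntt and Rag2, given next, these were Ung, Xrcc6 and Lig4, named after their values were seen. Rag1, a subunit of the recombinase that joins the segments, had 815, 1075 and 2250 in plasma cells, against 59.0, 35.6 and 37.0 in B cells (4.43 ± 0.40, adjusted p = 0.000714). Dntt, which adds bases at the joints of developing B cells, had 4059, 454 and 6212 in plasma cells and did not exceed background on any B cell array. It was at least 78.7-fold higher (adjusted p = 0.00574), and its plasma cell arrays were far from even. Rag2, the other recombinase subunit, was at least 3.52-fold higher (adjusted p = 0.0333). Rag1, Rag2 and Dntt were highest on plasma cell array 3. With Igll1 and Vpreb1, they are the pro-B and pre-B cell markers that were called higher. The part of such cells in these values was not tested. The immunoglobulin probe sets called higher numbered 41, 39 and 40 without plasma cell arrays 1, 2 and 3 in turn.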

How the data were processed

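RNA of 3 plasma cell and 3 B cell samples was extracted, amplified with NuGEN Ovation V2 and hybridised to Affymetrix arrays, per the labels' protocols. The authors deposited linear intensity values per probe set. The software, background correction and normalisation behind them are not given in the sources used here. Probe sets were named from a platform annotation of 2016, which gave 1 symbol for 34945, several for 932 and none for 9160. A suffix x marks probes that match other sequences, s probes shared by transcripts of several genes, and a transcripts of 1 gene.

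After 64 control probe sets were left out, log2(intensity + 16) was fitted for 45037 probe sets with limma 3.58.1 (R 4.3.3; lmFit, eBayes) and p-values were adjusted by Benjamini-Hochberg, with calls at 0.05. The procedure was tested on simulated normal values. These had no top or bottom of the scale and no outlying array, so the test does not cover those features of the data. A probe set was within background at or below the 95th percentile of 27 bacterial controls of its array. The number of arrays limits the precision. Alternatives were other pseudocounts, a filter on dim probe sets, median centring, quantile normalisation, array weights, a variance trend, a replicate block, leaving out each array, and restricting the members by suffix or symbol.

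The members and gene lists were chosen with earlier results of these data known. In each class of members, the text names the 2 with the highest mean, the called members with the highest and the lowest fold change, any called lower, every member of a class of 4 or fewer, and up to 3 not called. For each gene list it names up to 3 called genes in a direction. The main fit did not pair samples by replicate number. Correlations of same-numbered deviations were 0.05, 0.003 and 0.053, against −0.048 to 0.03 for arrays of other numbers. Such values cannot show whether samples were paired, and no label states it.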

Additional observations from a re-analysis of the deposited data

How the results depend on the processing

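The number of immunoglobulin probe sets called higher was 46 and lay between 39 and 46 when 1 array was left out, with 39 without plasma cell array 2 or B cell array 3. It was 43 with a pseudocount of 1, 46 with 64, 45 of 49 after the filter on dim probe sets, 45 after median centring or quantile normalisation, 46 with array weights, 48 with a variance trend and 45 with the replicate number as a block. Of the 26 members without a suffix 23 were called higher, and of the 39 with 1 symbol 36. The number called lower was 1 in each of these settings. Values that changed sign belonged to 2 probe sets that were not called. The log2 fold change of 1427660_x_at was −0.081 after quantile normalisation, −0.044 with array weights, −0.054 without plasma cell array 3 and −0.03 without B cell array 1, with a range of −0.054 to 0.064 over the arrays left out. That of 1427753_at was −0.025 with array weights, −0.003 without plasma cell array 1 and −0.033 without B cell array 1, with a range of −0.033 to 0.064. The cause was not tested. Over all probe sets, 6036 were called higher and 5761 lower. Lower calls were 3521 after median centring, which moved the median log2 fold change of all probe sets to −0.01, against −0.13. Array weights gave 9645 and 11396, leaving out B cell array 1 gave 8155 and 9331, plasma cell array 1 4012 and 3236, and plasma cell array 2 4196 and 3372. Intensities near the top of the scale limit fold changes, and values within background give only bounds.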
